A study of Rattus norvegicus with 24 samples.

Results

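The 10 genes described here are 7 ligands and 3 receptors of the ErbB signalling family: betacellulin (Btc), Egf, Tgfa, Hbegf, amphiregulin (Areg), epiregulin (Ereg), neuregulin 1 (Nrg1), Egfr, Erbb2 and Erbb3. They were chosen by gene symbol, with earlier results of these data known, among 9627 named genes on the arrays, and all 10 were found. Of these, 6 are in the table of the whole series, which holds 5750 named genes, and the other 4 (Egf, Tgfa, Areg and Ereg) are in the tables of the array platforms alone. Each is represented by 1 RefSeq transcript row, so isoforms, of which Nrg1 has many, were not told apart.

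The samples are spiral ganglia of Sprague-Dawley rats of both sexes at postnatal day 32 (P32) or 60 (P60). Deaf rats had received kanamycin, an aminoglycoside that destroys hair cells, at 400 mg/kg by intraperitoneal injection daily between P8 and P16, and hearing rats were littermates without injection. The organ of Corti was taken off, apical and basal portions were kept apart, and each biological replicate pooled 4 to 6 ganglia. With 3 replicates in each of 8 groups there are 24 samples, measured on 1-colour arrays.

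Epidermal growth factor family ligands are made as membrane-bound precursors, and proteases release many of them from the cell surface. They bind EGFR, ERBB3 or ERBB4, and the bound receptors pair with each other or with ERBB2, which has no ligand of its own. Betacellulin binds EGFR and ERBB4, whereas neuregulin 1 binds ERBB3 and ERBB4. In peripheral nerves, neuregulin 1 on axons signals to ERBB2 and ERBB3 on Schwann cells, which need it for survival and myelination. Cultured spiral ganglion Schwann cells are also known to respond to neuregulin.

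Sample medians lay between 1997 and 2263 linear intensity units, and precision is limited by how many arrays there are. Values of single genes below are log2 intensities across samples, and levels of different members are not set against each other, because probes differ in brightness. Marker sums are linear intensities added over the measured genes of a list, so bright probes weigh most in them. Markers of the labelled tissue were looked up. Of 15 spiral ganglion neuron genes 14 were measured, none with a mean under 8.57, and of 15 Schwann cell and satellite glia genes 14 were measured, none with a mean under 7.96. Markers of other cells were measured too, with lowest means of 9.89 for bone and cartilage, 10.15 for macrophages and 12.93 for fibroblasts and matrix. Such levels therefore cannot show which tissue was taken. In this bulk tissue, fewer cells of a type and less RNA per cell cannot be told apart. P32 hearing apex replicate 1 was the sample whose removal moved the number of genes called most, from 77 to 171 for deaf against hearing at P60 and from 86 to 317 for base against apex in hearing rats, so results that rest on it are given with and without it. Replicate 1 of every group was run on an array platform with 8 samples and replicates 2 and 3 on one with 16 samples.

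Btc, Areg, Ereg and Epgn lie next to each other in that order on rat chromosome 14, with no other protein-coding gene between them in the RefSeq annotation. The promoters of Btc and its neighbour Areg are shown because Btc was the family's called gene and Areg, the next gene along, serves as a comparison. They are RefSeq sequences of build GRCr8, from 250 bases before to 50 bases after the annotated start. The Btc promoter is chr14:16992418-16992717 on the plus strand and that of Areg chr14:17265592-17265891 on the minus strand, both printed 5′ to 3′ with motif matches in capitals.
Btc: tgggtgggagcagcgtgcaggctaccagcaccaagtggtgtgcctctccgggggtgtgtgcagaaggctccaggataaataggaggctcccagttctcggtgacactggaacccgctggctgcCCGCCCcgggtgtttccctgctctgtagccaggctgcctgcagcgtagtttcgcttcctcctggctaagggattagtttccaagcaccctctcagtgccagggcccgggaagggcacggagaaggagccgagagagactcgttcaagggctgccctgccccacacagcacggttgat
Areg: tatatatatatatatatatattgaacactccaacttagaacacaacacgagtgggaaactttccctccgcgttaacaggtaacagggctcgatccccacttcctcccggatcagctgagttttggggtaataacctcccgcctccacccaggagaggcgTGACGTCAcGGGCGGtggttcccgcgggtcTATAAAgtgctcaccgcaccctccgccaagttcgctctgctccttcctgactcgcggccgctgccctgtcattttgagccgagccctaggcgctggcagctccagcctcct
Motifs searched on both strands were the AP-1 site TGANTCA, the cAMP response element TGACGTCA, the GC box GGGCGG and the TATA box TATAAA. No matches overlapped in either window. The Btc window held 1 match, a GC box on the reverse strand at position -127. The Areg window held a cAMP response element at -91, a GC box at -82 and a TATA box at -61. Among 33469 promoters of the same length, 33.1% hold the GC box, 1.83% the cAMP response element, 14.2% the TATA box and 7.33% the AP-1 site, which neither window held.

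The P60 comparison of deafened with hearing rats shows where the family stands weeks after the injections. Btc rose by 2.0 ± 0.37 log2 units (4.0-fold), from 7.55 ± 0.68 (SD, n = 6) to 9.55 ± 0.76, with an adjusted p of 0.00981 in limma. That fit counted apical and basal portions as separate samples, and the call did not hold when they were treated as correlated (adjusted p = 0.467). In the first fit Btc alone passed among the 6 genes of the whole-series table, in a comparison where 1.34% of all genes passed. In the P60 apex, Btc was at 7.17, 8.84 and 7.75 in hearing and at 9.39, 9.84 and 8.73 in deaf rats. In the P60 base, it was at 7.03, 7.15 and 7.32 in hearing and at 9.10, 10.92 and 9.31 in deaf rats. Basal groups therefore did not overlap, which 5.18% of all genes showed in this direction, while in the apex 1 hearing sample lay above 1 deaf sample. Within portions the difference was 1.40 ± 0.52 in the apex (adjusted p = 0.357) and 2.61 ± 0.52 in the base (adjusted p = 0.109), and neither passed, where 0.504% and 0.0696% of all genes did.

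Btc was higher in deaf ganglia in 6 of 6 pairs of the same replicate number at P60, as were 10.9% of all genes. On the platform of 8 samples the P60 difference was 2.14, and on that of 16 samples it was 1.94. The call held whichever of the 24 samples was left out, with an adjusted p between 0.00184 and 0.0411. It ended when the apical and basal portions of 1 age, condition and number were treated as correlated (2.0 ± 0.61, adjusted p = 0.467), and on the 16-sample platform alone (adjusted p = 0.131). With replicate number within each age as a further block, the adjusted p was 0.0488.

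Macrophage markers were also higher in deaf ganglia at P60. Of 15 such genes 13 were measured and 6 of them rose at P60, where 1.18% of all genes did. With correlated portions 0 of the 13 passed in limma, and leaving out single samples gave 1 (Cd68, for each of 8 P60 samples left out) to 10 (without P32 hearing apex replicate 1). Their summed intensity ran from 28140 to 82252 units in hearing and from 77254 to 126213 in deaf samples. Summed glial markers ran from 161237 to 252485 in hearing and from 152642 to 280836 in deaf samples, so those ranges overlapped widely. Summed neuron markers ran from 185317 to 282438 in hearing and from 142039 to 223196 in deaf samples. Of 10 hair cell genes 3 were measured, with sums of 914 to 7521 in hearing and 830 to 1703 in deaf samples. At P32 the macrophage sums ran from 39841 to 120236 in hearing and from 57352 to 105820 in deaf samples. Between the base and the apex of hearing rats, the macrophage markers had a median difference of 0.76, with 13 of 13 above 0. Btc differed there by -0.74 ± 0.37. The part of any of these cell types in the Btc difference was not tested.

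At P32, Btc was higher in deaf ganglia by 1.15 ± 0.37 and did not pass (adjusted p = 0.782). In the P32 apex, values were 8.37, 6.46 and 7.59 in hearing and 8.45, 7.75 and 8.70 in deaf rats. In the P32 base they were 6.13, 6.90 and 7.18 in hearing and 8.10, 8.55 and 8.0 in deaf rats. The basal groups again did not overlap, which 0.765% of all genes showed in this direction, and 6 of 6 pairs were higher, as in 2.02% of genes. At P32, 0.0174% of genes passed the test. Without P32 hearing apex replicate 1, whose Btc value of 8.37 was the highest among P32 hearing samples, the difference was 1.45 (adjusted p = 0.0883).

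All 4 deaf groups had a higher mean of Btc than all 4 hearing groups. In rising order the means were 6.74 ± 0.54 (P32 hearing base), 7.17 ± 0.15 (P60 hearing base), 7.47 ± 0.96 (P32 hearing apex) and 7.92 ± 0.85 (P60 hearing apex). They went on with 8.22 ± 0.29 (P32 deaf base), 8.30 ± 0.49 (P32 deaf apex), 9.32 ± 0.56 (P60 deaf apex) and 9.78 ± 1.0 (P60 deaf base), each SD with n = 3. The step between P32 deaf apex and P60 deaf apex exceeded the SD of either group, and every other neighbouring step was smaller than the larger SD of its groups. The deafness difference at P60 exceeded that at P32 by 0.85 ± 0.52 and that of the base exceeded that of the apex by 0.93 ± 0.52. Btc at P60 exceeded Btc at P32 by 1.29 ± 0.37 in deaf rats (adjusted p = 0.476, 6 of 6 pairs, as in 3.25% of genes) and by 0.44 ± 0.37 in hearing rats (adjusted p = 0.721, 5 of 6 pairs). Base against apex was -0.74 ± 0.37 in hearing (adjusted p = 0.581) and 0.19 ± 0.37 in deaf rats (adjusted p = 0.984), and in hearing rats it was -0.45 without P32 hearing apex replicate 1. Neither change of the deafness difference, by age or by portion, passed (adjusted p = 1.0 for each), and limma called 0 genes in either, with 119 and 29 genes at an unadjusted p under 0.05.

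**Figure D1:**
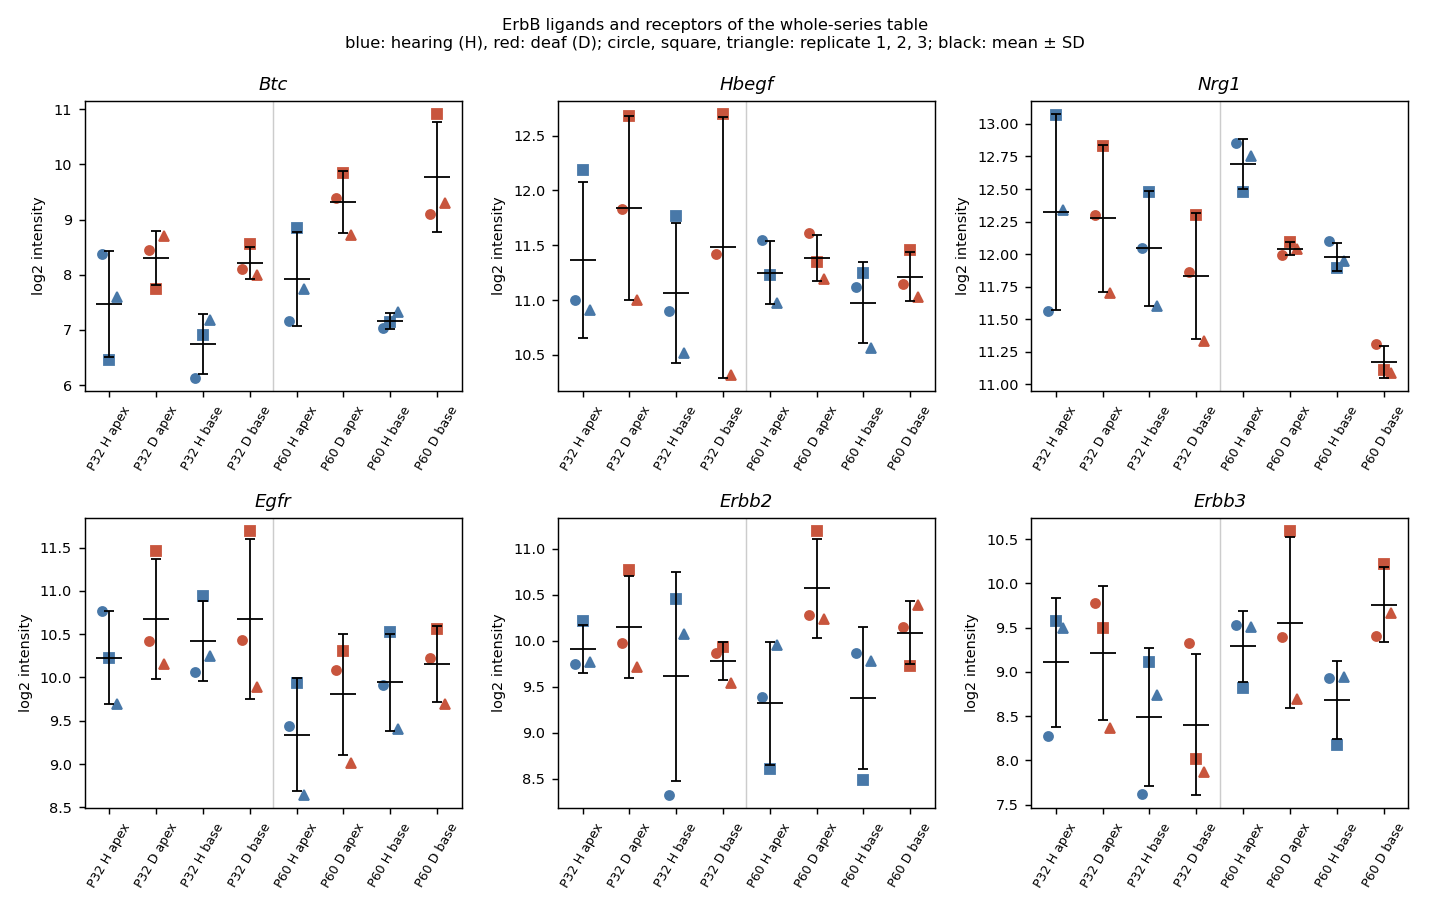
Log2 intensity of the 6 genes of the whole-series table in each of the 24 samples (y axis, separate scale per gene) by group (x axis). Points are samples, with shape giving the replicate number, and black bars are mean ± SD (n = 3). The means of Btc are higher in all deaf than in all hearing groups, although samples overlap, and the mean of Nrg1 is lowest in the P60 deaf base.

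Nrg1, the ligand by which axons signal to Schwann cells, had a lower mean in deaf than in hearing ganglia at P60, with a log2 difference of -0.73 ± 0.24, and did not pass (adjusted p = 0.183). In the P60 apex it was at 12.85, 12.48 and 12.75 in hearing and at 11.99, 12.09 and 12.04 in deaf rats. In the P60 base it was at 12.10, 11.89 and 11.95 in hearing and at 11.31, 11.11 and 11.09 in deaf rats. Deaf and hearing groups did not overlap in the apex or in the base. Of all genes, 1.5% were lower without overlap in both portions, and among the 10 family members Nrg1 alone was. All 6 pairs were lower, as in 8.1% of genes, and the difference was -0.82 on the 8-sample and -0.68 on the 16-sample platform. Leaving out single samples gave an adjusted p between 0.0798 and 0.363; the replicate block gave 0.0738, that block within age with correlated portions gave 0.112, and correlated portions alone gave 0.96. Of the 14 neuron markers measured, 1 had a log2 difference above 0 at P60 and 0 passed in limma, with a median of -0.34 against 0.04 over all genes. Their part in the Nrg1 difference was not tested.

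At P32 the deafness difference of Nrg1 was -0.13 ± 0.24 (adjusted p = 1.0). P32 apical values were 11.56, 13.07 and 12.34 in hearing and 12.30, 12.83 and 11.70 in deaf rats. P32 basal values were 12.05, 12.48 and 11.60 in hearing and 11.86, 12.30 and 11.33 in deaf rats. The groups overlapped in both portions, and 5 of 6 pairs were lower in deaf rats. Without P32 hearing apex replicate 1, the lowest value of its group, the P32 difference was -0.34. The change of the deafness difference from P32 to P60 was -0.60 ± 0.34 and did not pass (adjusted p = 1.0).

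Nrg1 was lower in the base than in the apex, a comparison that asks for differences along the length of the cochlea. The difference was -0.66 ± 0.24 in deaf rats (adjusted p = 0.248) and -0.49 ± 0.24 in hearing rats (adjusted p = 0.566), where 2.02% and 1.5% of all genes passed. Of the pairs of the same number, 6 of 6 were lower in the base in deaf rats, as in 8.56% of genes, and 5 of 6 in hearing rats. The exception was replicate 1 of P32 hearing rats, in which the apex was at 11.56 and the base at 12.05. At P60 apical and basal groups did not overlap in hearing rats, which 4.83% of genes showed in this direction, or in deaf rats, which 4.05% showed.

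With the portions of 1 age, condition and number treated as correlated, Nrg1 passed in both conditions. The adjusted p was then 0.00753 in deaf and 0.044 in hearing rats, in fits that called 3.86% and 2.26% of all genes lower in the base. The same fit with replicate number within each age as a block gave 0.00764 and 0.0368. These calls rest on pairing the portions by number. The labels do not say that paired portions share animals. Correlations between portions of the same number ran from 0.54 to 0.854 in P32 hearing and from 0.852 to 0.919 in P32 deaf rats. At P60 they ran from 0.787 to 0.879 in hearing and from -0.0229 to 0.68 in deaf rats. The test of whether the portion difference itself differs between deaf and hearing rats did not pass (-0.17 ± 0.34, adjusted p = 1.0). In hearing rats the neuron markers had a median base against apex difference of -0.27, with 1 of 14 above 0, and the macrophage markers one of 0.76, with 13 of 13 above 0, against -0.04 over all genes. Without P32 hearing apex replicate 1 the Nrg1 difference in hearing rats was -0.70 (adjusted p = 0.0881). The part of either cell type was not tested.

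**Figure D2:**
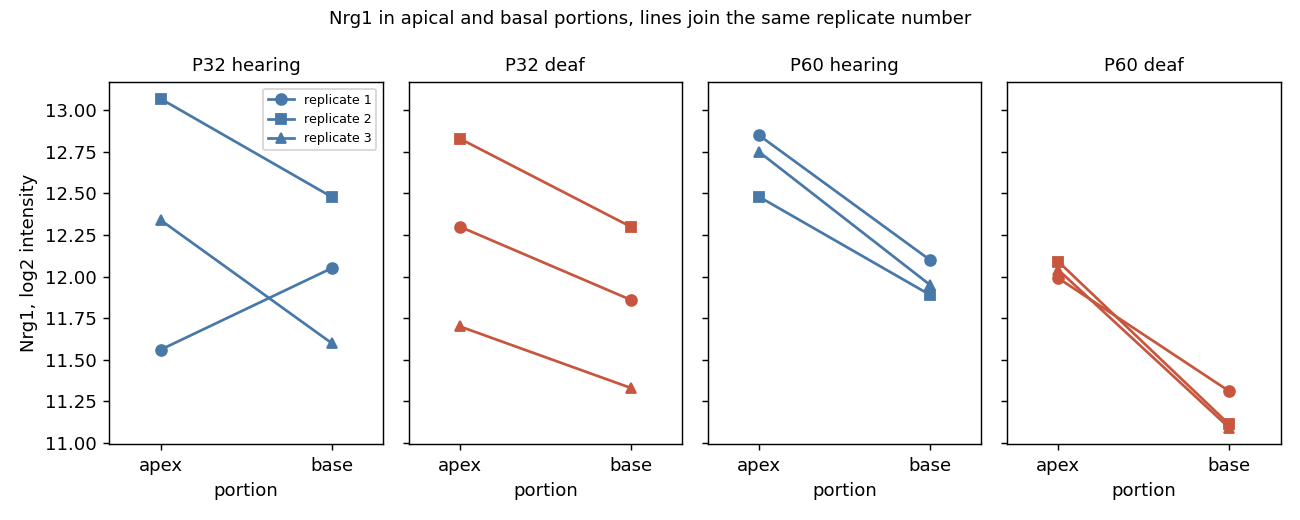
Log2 intensity of Nrg1 (y axis) in the apical and basal portion (x axis) for each age and condition, with lines joining samples of the same replicate number. In 11 of 12 pairs the base is lower, and in P60 deaf rats the basal samples lie at 11.09 to 11.31.

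Hbegf, heparin-binding EGF-like growth factor, which binds EGFR and ERBB4, varied with replicate number more than with deafness. At P32 its mean was 12.33 ± 0.44 (SD, n = 4) in samples of replicate 2, 11.28 ± 0.43 in those of replicate 1 and 10.69 ± 0.32 in those of replicate 3. Replicate number held 50.3% of the variance of Hbegf over the 24 samples and condition 7.21%. Its P60 apical values were 11.55, 11.23 and 10.97 in hearing and 11.61, 11.35 and 11.19 in deaf rats. Its P60 basal values were 11.12, 11.25 and 10.56 in hearing and 11.15, 11.46 and 11.03 in deaf rats. All 6 pairs were higher in deaf rats at P60, as in 10.9% of genes. The difference was 0.18 ± 0.37 (adjusted p = 0.932) and the groups overlapped. At P32 it was 0.44 ± 0.37 (adjusted p = 1.0), higher in 5 of 6 pairs.

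The other 4 ligands were found in the platform tables alone, where 0.758% of 9627 genes passed at P60 and 0.0208% at P32, and none of them passed in any of the 12 comparisons. Areg ran from 2.96 to 4.67 over the 24 samples, and whether it or Ereg stands above background was not tested. Areg, an EGFR ligand, was higher in deaf ganglia at P60 by 0.42 ± 0.16 (adjusted p = 0.346). Areg was higher in 6 of 6 pairs, as in 10.9% of the genes of the whole-series table. Its P60 apical values were 3.80, 3.35 and 3.06 in hearing and 4.67, 3.77 and 3.85 in deaf rats, and its P60 basal values 3.76, 3.23 and 3.04 in hearing and 3.84, 3.45 and 3.16 in deaf rats. The highest hearing value in the apex lay above the lowest deaf value. The deafness difference of Areg at P32 was -0.25 ± 0.16, with 3 of 6 pairs higher in deaf rats. It was -0.88 on the 8-sample and 0.07 on the 16-sample platform. Replicate 1 of the P32 hearing rats was at 4.53 in the apex and 4.50 in the base, and the other P32 hearing samples at 2.96 to 3.21. The change of the deafness difference of Areg to P60 was 0.66 ± 0.22 (adjusted p = 1.0). Replicate number held 60.2% of the variance of Areg and 57.8% of that of Tgfa, nearly all of it between replicate 1 on its own platform and the other replicates.

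Ereg, which binds EGFR and ERBB4, stayed between 2.91 and 3.68 in all 24 samples and differed by 0.09 ± 0.14 at P60 and by -0.20 ± 0.14 at P32. In P60 hearing rats its basal values of 3.05, 3.03 and 3.00 lay below the apical values of 3.17, 3.16 and 3.14, as in 4.83% of the genes of the whole-series table. The base and apex of hearing rats differed by -0.21 ± 0.14 (adjusted p = 0.871). Tgfa, another EGFR ligand, ran from 5.85 to 7.95, and its deafness difference was 0.02 ± 0.18 at P60 and 0.06 ± 0.18 at P32. Egf ran from 6.34 to 8.80, with differences of -0.09 ± 0.41 at P60 and 0.46 ± 0.41 at P32. The P32 difference of Egf was 1.54 on the 8-sample and -0.08 on the 16-sample platform, with 4 of 6 pairs higher in deaf rats. Base against apex in hearing rats was 0.23 ± 0.18 for Tgfa and -0.49 ± 0.41 for Egf, and neither passed. Egf was lower in the base in 6 of 6 pairs, as in 10.4% of the genes of the whole-series table.

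**Figure D3:**
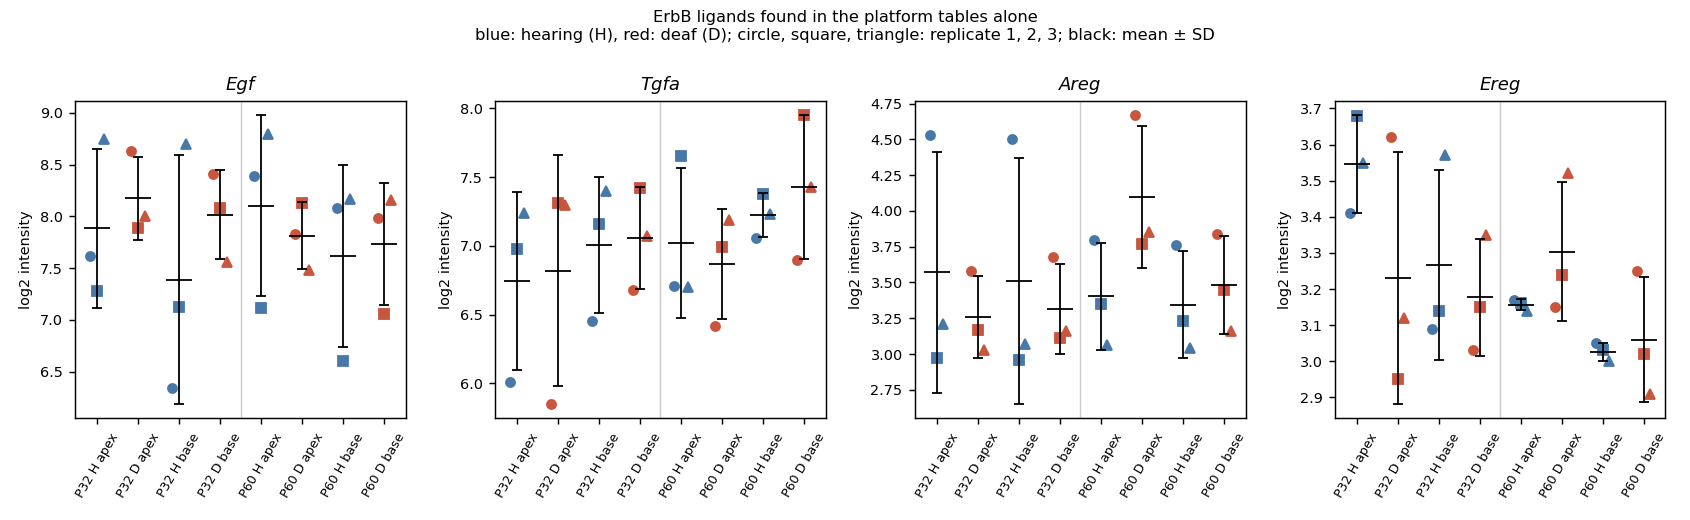
Log2 intensity of Egf, Tgfa, Areg and Ereg (y axis, separate scale per gene) in the 24 samples by group (x axis). Points are samples by replicate number and black bars are mean ± SD (n = 3). Areg samples of replicate 1, at 3.58 to 4.67, lie above those of replicates 2 and 3 in each group.

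Erbb2, the co-receptor without a ligand, was higher in deaf ganglia at P60 by 0.98 ± 0.35 log2 units, at 10.33 ± 0.48 (SD, n = 6) against 9.35 ± 0.65, and did not pass (adjusted p = 0.218). In the P60 apex it was at 9.39, 8.61 and 9.95 in hearing and at 10.28, 11.19 and 10.23 in deaf rats, so these groups did not overlap, as in 7.76% of genes. In the P60 base it was at 9.86, 8.49 and 9.78 in hearing and at 10.15, 9.72 and 10.39 in deaf rats, which overlap. All 6 pairs were higher in deaf rats, as in 10.9% of genes. On the 8-sample platform the difference was 0.59 and on the 16-sample platform 1.18. At P32 it was 0.20 ± 0.35 (adjusted p = 1.0), with 3 of 6 pairs higher, and base against apex in hearing rats was -0.12 ± 0.35.

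Erbb3, the receptor through which Schwann cells bind neuregulin, was higher in deaf ganglia at P60 by 0.67 ± 0.39 and did not pass (adjusted p = 0.528). In the P60 base it was at 8.93, 8.17 and 8.94 in hearing and at 9.40, 10.22 and 9.66 in deaf rats, and these groups did not overlap, as in 5.18% of genes. In the P60 apex it was at 9.53, 8.82 and 9.51 in hearing and at 9.39, 10.59 and 8.69 in deaf rats, which overlap. Of the P60 pairs 4 of 6 were higher in deaf rats, and the difference was 0.16 on the 8-sample and 0.93 on the 16-sample platform. At P32 the difference was 0.01 ± 0.39, and the platforms went opposite ways, with 1.60 on that of 8 and -0.79 on that of 16 samples. In hearing rats the base was lower than the apex in 6 of 6 pairs, as in 10.4% of genes (-0.61 ± 0.39, adjusted p = 0.769). P32 hearing apex replicate 1 had the lowest Erbb3 of its group, at 8.27 against 9.57 and 9.49, and without it the P32 difference was -0.22. In deaf rats Erbb3 at P60 exceeded that at P32 by 0.85 ± 0.39 (adjusted p = 0.875), in 5 of 6 pairs.

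Egfr, the receptor of betacellulin and the other EGF-type ligands, was lower at P60 than at P32 in 6 of 6 pairs in hearing and in 6 of 6 pairs in deaf rats. The differences were -0.68 ± 0.36 (adjusted p = 0.652) and -0.69 ± 0.36 (adjusted p = 0.875), and neither passed. Of all genes, 5.15% in hearing and 3.11% in deaf rats were lower in all 6 pairs, and 0.087% and 0.104% passed the test. P32 Egfr values were 10.77, 10.23 and 9.69 in the hearing apex, 10.06, 10.94 and 10.25 in the hearing base, 10.42, 11.46 and 10.15 in the deaf apex and 10.43, 11.69 and 9.89 in the deaf base. At P60 they were 9.44, 9.94 and 8.64 in the hearing apex, 9.91, 10.52 and 9.40 in the hearing base, 10.09, 10.31 and 9.01 in the deaf apex and 10.22, 10.56 and 9.69 in the deaf base. Replicate number held 46.0% of the variance of Egfr, age 26.1% and condition 6.51%. Deaf ganglia were at 0.34 ± 0.36 over hearing at P60 (adjusted p = 0.828, 6 of 6 pairs higher, as in 10.9% of genes) and at 0.35 ± 0.36 at P32 (adjusted p = 1.0, 4 of 6 pairs). Single samples moved these differences, to between 0.16 (without P60 hearing apex replicate 3) and 0.54 (without P60 deaf apex replicate 3) at P60 and between 0.08 (without P32 deaf base replicate 2) and 0.55 (without P32 deaf base replicate 3) at P32.

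**Figure D4:**
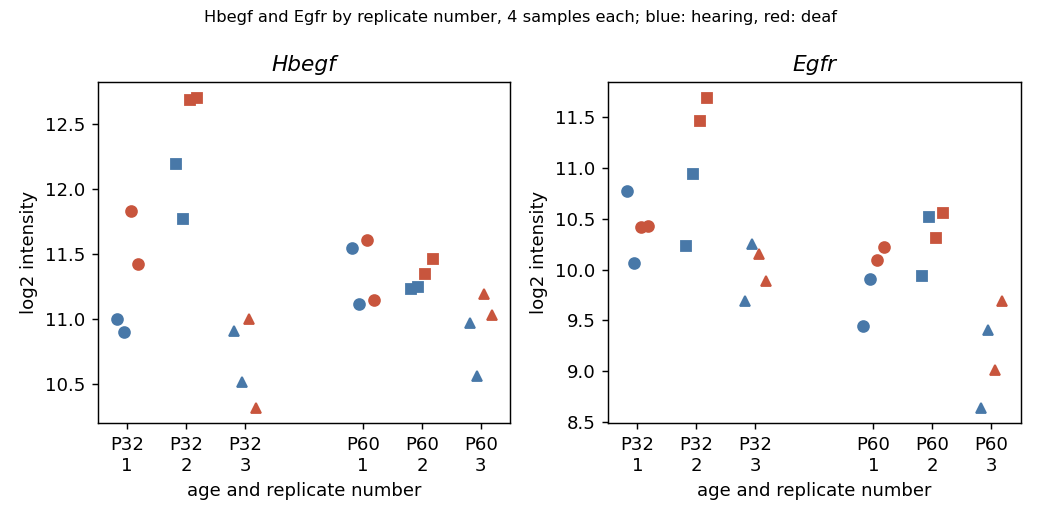
Log2 intensity of Hbegf and Egfr (y axis) by age and replicate number (x axis), 4 samples for each number, coloured by condition. At P32, Hbegf samples of replicate 2 lie at 11.77 to 12.70 and all those of replicate 3 lie below them.

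**Figure D5:**
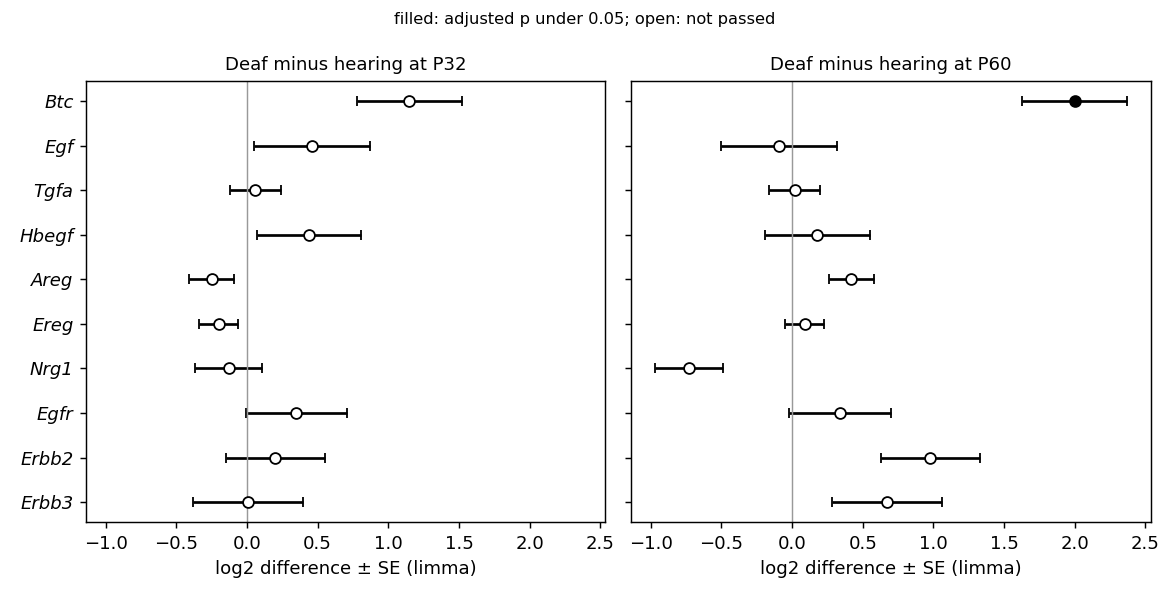
Deaf minus hearing log2 difference ± SE (x axis, limma, both portions) for the 10 genes (y axis) at P32 and P60. Btc at P60, at 2.0, is the only filled point, meaning an adjusted p under 0.05 in the fit that counts portions as separate samples.

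Across the 6 genes of the whole-series table the median deafness difference was 0.50 at P60, with 5 above 0, against 0.04 over all genes. Of these 6, only Btc passed in limma, and it did not with portions treated as correlated (adjusted p = 0.467). At P32 the median was 0.28, again with 5 above 0, against -0.02, and none passed. The 5 at P32 include Erbb3, at 0.01 ± 0.39. The 4 ligands in the platform tables alone had a median of 0.06 at P60, with 3 above 0. At P32 their median was -0.07, with 2 above 0. Over all genes of those tables the medians were 0.02 and -0.01. Erbb4, the receptor shared by betacellulin and neuregulin, was found in the platform tables and ran from 5.14 to 7.76 over the samples. Its deafness difference was -0.24 ± 0.38 at P60 and 0.30 ± 0.38 at P32 (adjusted p = 1.0 for each). Nrg2, Nrg3, Nrg4 and Epgn were not matched to a row and were not analysed here.

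Genes of the wider pathway were taken from lists of known components, which were chosen with earlier results of these data known. Counts and medians of these lists therefore describe their genes and do not test the pathway. Of 12 measured transcripts that growth factors induce, 3 rose at P60, where 1.18% of all genes did, with a list median of 0.95 against 0.04 over all genes. Treating portions as correlated ended all 3 calls (adjusted p = 0.402 for Fos, 0.122 for Fosl2 and 0.461 for Ccnd1). They were Fos (1.73 ± 0.26, adjusted p = 0.00188), Fosl2 (1.32 ± 0.23, adjusted p = 0.00604), which both encode AP-1 subunits, and Ccnd1, cyclin D1 (1.19 ± 0.24, adjusted p = 0.0159). Fos was at 9.03 to 10.73 in P60 hearing and 11.03 to 12.62 in P60 deaf samples. It was therefore higher without overlap in the apex and in the base, as in 2.71% of all genes. The macrophage marker sums also ran higher in P60 deaf samples, and the part of those cells in these differences was not tested. On the 16-sample platform alone Fosl2 (0.0754) and Ccnd1 (0.0888) did not pass either, nor without a platform term (0.309 and 0.186). Ccnd1 also lost its call without P60 deaf apex replicate 2 (adjusted p = 0.0546) or P60 deaf base replicate 3 (0.0571), and with replicate number within each age as a block (0.0608).

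No member of the other pathway lists passed at P60, at P32 or between the portions of hearing rats. Of 21 adaptors and kinases, the genes with the smallest p at P60 were Stat3, a transcription factor that receptors and cytokines activate (0.83 ± 0.26, adjusted p = 0.15), the adaptor Shc1 (0.68 ± 0.28) and Stat5b (0.25 ± 0.17), and the list median was 0.10. Without P60 deaf apex replicate 3, Stat3 passed (1.05, adjusted p = 0.0437). Of 9 negative regulators they included Dusp6, an ERK phosphatase (0.71 ± 0.26, adjusted p = 0.23), and Ptpn1 (0.39 ± 0.25), with a median of 0.15. Of 7 shedding and processing genes they were Rhbdf1, which encodes iRhom1, a partner of the ADAM17 protease (0.79 ± 0.34), Timp3, a protease inhibitor (0.40 ± 0.22), and Adam17 itself (0.71 ± 0.47), with a median of 0.38. Of 14 glial genes known to depend on neuregulin or to mark immature Schwann cells they included Ngfr (1.48 ± 0.58, adjusted p = 0.284) and Cdh19 (0.50 ± 0.44), with a median of 0.00.

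The genes whose pattern was most like that of Btc over the 24 samples were Atf3, a transcription factor induced in injured neurons (Pearson r = 0.86), Ucn2, urocortin 2 (0.81), and the receptor Gpr83 (0.81). These are correlations of log2 intensity over samples that share arrays and conditions, chosen as the highest among the tested genes. At P60 Atf3 differed by 3.36 ± 0.50 between deaf and hearing rats, Ucn2 by 5.11 ± 0.56 and Gpr83 by 4.53 ± 0.43.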

How the data were processed

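The authors deposited intensity values normalized with RMA, per the submitters' processing notes, which name no version. Technical replicates were averaged into 1 value for each biological replicate, per the labels. The intensity values are linear, so log2 was taken here. The whole-series table has 14138 rows. The platform tables, joined by row, have 26419 rows and differ from it by at most 0.002 units where shared, so the joined table served for the 4 members it lacks. Rows were named by RefSeq accession (5828 of 14138 and 9747 of 26419, GRCr8, names only), keeping the brightest row by mean for each gene. limma 3.58.1 in R 4.3.3 fitted 8 group means with platform as an additive term to all genes of all 24 samples (15 residual degrees of freedom). P-values were adjusted by Benjamini-Hochberg over all genes of the fit, two-sided, with a threshold of 0.05. An exact test of 3 against 3 cannot go below 0.1. The scripts were tested on simulated data.

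A difference is log2 ± SE, from 3 samples a group, or 6 a side for means over portions or ages. The 12 comparisons are deaf against hearing at each age and within each portion, P60 against P32 and the base against the apex in hearing and in deaf rats, and the change of the deafness difference between ages and between portions. Labels do not say whether portions of the same number come from the same animals. The numbers were checked by correlating deviations from group means. All same-number correlations were over 0.1 for 3 of 4 pairs of deaf and hearing groups (not P60 apex, lowest -0.0863), for 3 of 4 pairs of portions (not P60 deaf, lowest -0.0229) and for 4 of 4 pairs of ages.

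Named genes are all members; of each pathway list, genes that passed and otherwise the 3 with the smallest p at P60 (some are not reported here); and the 3 genes most correlated with a member that passed. Members and lists were chosen with earlier results of these data known. The marker and pathway lists matched genes of the whole-series table as given with each result. Alternatives covered the platform term, replicate blocks, correlated portions, the larger platform alone, the unfiltered table, an offset of 50 units, a filter on dim genes, averaged rows, repeated quantile normalization and each sample left out. The labels call replicates biological but do not say which animals each pool came from, so p-values measure the spread between these samples.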

Additional observations from a re-analysis of the deposited data

How the results depend on the processing

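The number of members called at P60 was 1 and fell to 0 with portions as a random block, on the 16-sample platform alone, and with genes above the lower quartile, a filter that leaves Btc out, since it is under that quartile. In the P60 base it was 0, rising to 1 (Btc) with quantile normalization repeated, and leaving out samples gave 0 to 1 (1 without P32 hearing apex replicate 1 or 2). For base against apex it was 0 in hearing and 0 in deaf rats and rose to 1 (Nrg1) in each with portions as a random block and with replicate block within age and portions as a random block. All other member counts were the same under every alternative run. The replicate block alone changed no member's call (Btc at P60, adjusted p = 0.00812).

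Genes called at P60 numbered 77, against 36 without a platform term, 178 with the replicate block, 46 with that block within age and correlated portions, 4 with correlated portions (correlation 0.629) and 14 on the 16-sample platform. Leaving out samples gave 29 (without P60 hearing base replicate 1) to 171 (without P32 hearing apex replicate 1). For base against apex in hearing and deaf rats they numbered 86 and 116, against 539 and 588 with correlated portions, 473 and 506 with the block within age added, 142 and 166 with the replicate block, and 54 and 29 on the 16-sample platform.

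Some differences, none of them called, turned direction on the 16-sample platform. These included Egf at P60 (0.04) and P32 (-0.08), Areg at P32 (0.07) and Erbb3 at P32 (-0.79). Erbb2 did so at P32 (-0.14) and between portions of hearing rats (0.06). Tgfa at P60 became -0.11 when quantile normalization was repeated. Leaving out single samples gave -0.19 to 0.06 for Areg and -0.32 to 0.21 for Erbb2 between portions of hearing rats. It gave -0.34 to 0.10 for Egf and -0.12 to 0.12 for Tgfa at P60, and -0.13 to 0.40 for Erbb2, -0.26 to 0.23 for Erbb3, -0.34 to 0.06 for Nrg1 and 0.00 to 0.20 for Tgfa at P32. The causes were not tested.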
